A study of Mytilus galloprovincialis with 40 samples.

Results

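Relative transcript abundance in the digestive gland of female mussels was compared between spring, the mean of March and April 2008, and autumn, the mean of September and October 2007. The 4 months were taken by calendar and not by any measured value, and the comparison covered all 1920 cDNA clones of the array. Of the 40 arrays of the annual loop, 21 carried RNA of at least 1 of these months and 19 did not. All 40 entered the fit, since no array set a spring month directly against an autumn month.

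The animals were untreated females of *Mytilus galloprovincialis* from a sub-tidal population in the Bizerta Lagoon, Tunisia, so sex, tissue and site were shared by both seasons. Each array paired the gland RNA of 1 animal with that of 1 animal of the preceding month, in Cy3 and Cy5, except on the 4 May/Apr arrays. These set May 2007 against April 2008 and so join the ends of the sampled year, and a May/Apr ratio is not a change in time after spring. A step between neighbouring months held 3 arrays, but there were 4 in each of the steps from January to May. The study's methods took females from the gonad stage that prevailed in the month, so month and gonad stage cannot be told apart, and each season was sampled in 1 year. Ages were not given in the sources used here. Whether an animal was used on both arrays that could carry its month was not given in the sources used here.

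The digestive gland is the main organ of intracellular digestion in bivalves, and it also stores nutrients and handles many contaminants. Its activity and reserves are known to follow food supply, temperature and the gonad cycle, which in mussels of temperate waters move with the seasons. RNA was taken from pieces of whole gland, and in such bulk samples fewer cells of a type and less RNA per cell cannot be told apart. The clones carried position codes (plate, row and column of a clone library) without gene names or sequences. Roles, gene groups and markers of gland or gonad cells were therefore not analysed here, and the results are given for coded clones.

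In the 21 arrays, between 13.6% and 78.4% of the clone spots lay above background in both dyes, with a median of 37.9%. One array of the Apr/Mar step, its replicate 1, had the opposite pattern to its 3 fellows, with r of -0.80 against their mean across clones, and was used as labelled. In 2 pairs of arrays of 1 step, the ratios differed by less than the noise between the 2 spots of a clone. These were Dec/Nov replicates 2 and 3 (SD of the difference 0.13 on the log2 scale, 0.18 given by the spots) and Mar/Feb replicates 2 and 4 (0.26, 0.31 given by the spots). The 4 Mar/Feb arrays fell into pairs by dye orientation. Arrays of the same orientation correlated across clones at r of 0.44 and 0.78, and those of opposite orientation at -0.16 to -0.04. In the other 46 pairs of replicate arrays the difference was 1.12 to 4.63 times the spot noise. The values below use all 40 arrays, and the counts are also given with each of these pairs averaged and counted as 1 array. Where a ratio is said to have 1 direction on every Mar/Feb or Dec/Nov array, the alike arrays may not be independent.

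Few clones were called between spring and autumn glands, and most of these had more transcript in spring. Calls needed an adjusted p under 0.05 from limma (Benjamini-Hochberg, over all clones) together with a log-odds B above 0. On this rule 21 of the 1920 clones were called (1.09%), of which 17 were higher in spring (0.885%) and 4 lower (0.208%). At an unadjusted p under 0.05 there were 244 clones, and a clone that was not called is not thereby shown to be alike in both seasons. Count and balance depended on the processing. Median centring gave 0 calls, and separate channels gave 195, of which 96 were higher and 99 lower in spring. The 17 higher clones differed by a median of 2.98-fold, from 2.31-fold to 5.90-fold. The 4 lower clones differed by a median of 2.56-fold, from 1.86-fold to 6.52-fold. The folds of 5.90 and 1.86 came from clones below background in most channels of both seasons. Among the clones not so dim, the 15 higher ones ran from 2.31-fold to 4.18-fold and the 3 lower ones from 2.10-fold to 6.52-fold.

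With the alike arrays averaged, 13 clones were called (0.677%), 12 higher (0.625%) and 1 lower in spring, and all 13 were among the 21. The other 8, of which 5 were higher and 3 lower in spring, then had adjusted p between 0.0515 and 0.118. All 21 kept their direction, in a fit to the same arrays on which they were chosen. The last clone called with all 40 arrays was Myt01-004H09 (log2 difference 1.57, B 0.18), and the first not called was Myt01-001B01 (log2 difference 2.31, B -0.015).

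Over all clones the differences centred near 0. The median log2 difference, spring minus autumn, was 0.02, with quartiles of -0.16 and 0.21, and 52.8% of the clones lay above 0. The median standard error was 0.23. A difference of at least 2-fold was estimated for 59 clones towards spring and for 18 towards autumn, and 20 of these were called.

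**Figure D1:**
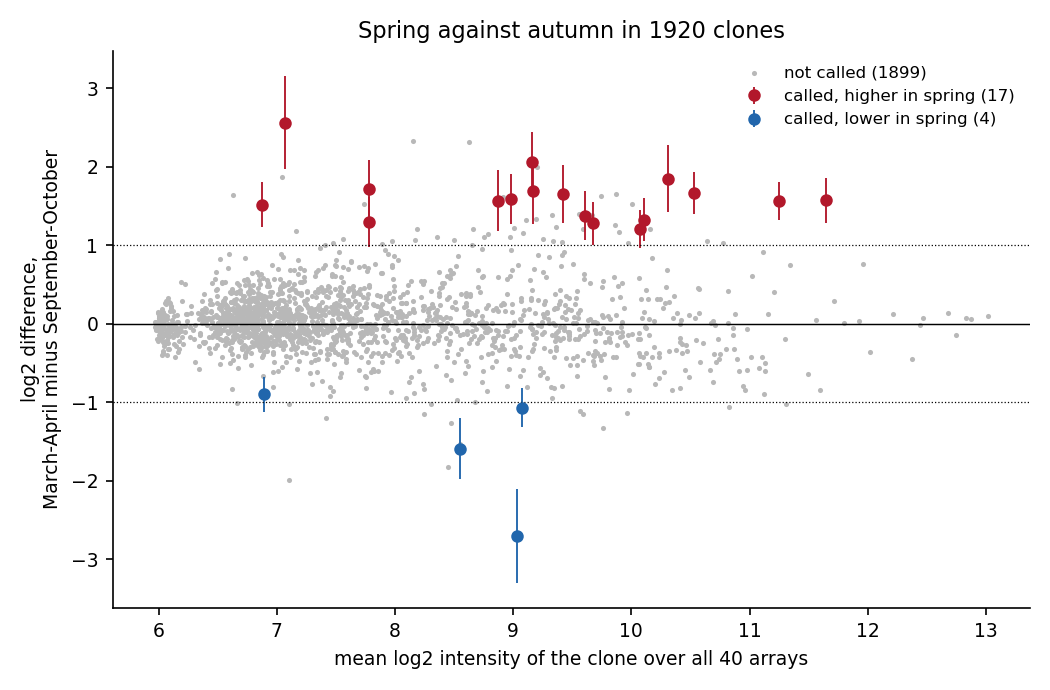
Log2 difference between spring and autumn (vertical axis) against the mean log2 intensity of the clone over the 40 arrays (horizontal axis) for 1920 clones. Grey points were not called, red and blue points with bars (estimate ± SE) are the 17 clones called higher and the 4 called lower in spring, and dotted lines mark 2-fold. The cloud is centred near 0, and the called clones lie mostly at middle to high intensity. Of the clones that differ by at least 2-fold, 59 towards spring and 18 towards autumn, 20 were called.

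The called clones were brighter than most. The mean log2 intensity of the 17 higher clones had a median of 9.42 and that of the 4 lower ones a median of 8.79, against 7.31 over all clones. Of the called clones, 3 were nonetheless below background in most channels of both seasons. Myt01-001A01 was above it in 4 of 16 spring and 2 of 12 autumn channels, and Myt01-009G09 in 1 of 16 and 5 of 12. Myt01-003D11, singled out after its values were seen, was above background in 1 of 16 and 3 of 12. The 21 clones came from 11 of the 20 library plates, with 5 on plate 9 and 4 on plate 1. Of the 16 print-tip blocks, which hold 120 clones each, block 7 held 5 of the 21, block 13 held 4 and block 5 held 3. The part of print position in these calls was tested only by print-tip loess, under which 23 clones were called (1.2%) and 14 of the 21 remained.

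The strongest spring clone by B was Myt01-009E04. Its log2 ratio on the 4 Mar/Feb arrays was 0.50, 0.65, 0.55 and 0.64, and on the 4 May/Apr arrays it was -0.91, -1.04, -0.96 and -0.64. On every array the level in March was thus above that in February, and the level in May 2007 below that in April 2008. On the Sep/Aug arrays the ratio was 0.03, -0.70 and -1.41, so replicate 1 did not share the decrease of the other 2, and on the Jan/Dec arrays it was 0.66, 1.18 and 1.43. Across the loop this gave a spring level 2.95-fold above autumn (log2 1.56 ± 0.24 SE, adjusted p = 5.27e-04).

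The course of Myt01-005E10 was much like it. The ratio was 0.39, 0.49, 0.52 and 0.59 on Mar/Feb, -0.85, -0.93, -0.93 and -0.74 on May/Apr, and -0.22, -0.84 and -1.44 on Sep/Aug. All 4 Feb/Jan arrays were positive as well, at 0.82, 0.56, 0.99 and 0.32. The level in spring was 3.17-fold above that in autumn (log2 1.66 ± 0.27, adjusted p = 5.27e-04). In both clones the Mar/Feb ratio was positive and the May/Apr ratio negative on all 4 arrays, of which Mar/Feb replicates 2 and 4 are an alike pair.

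The clone with the largest difference was Myt01-016G08, which was 6.52-fold lower in spring (log2 -2.70 ± 0.59, adjusted p = 0.0123). Its ratio was 0.71, 3.23 and 1.66 on Sep/Aug, -0.74, -2.38 and -1.25 on Nov/Oct, and -2.51, -3.20 and -3.25 on Dec/Nov. It then read 3.08, 2.16 and 2.11 on Jan/Dec and -2.70, -2.50, -2.35 and -2.04 on Feb/Jan. This transcript was therefore high in September and October, low in December, high again in January and low in February and March, with the direction of each of these steps the same on all arrays. The spread on single steps was wide, with an SD of 1.27 over the 3 Sep/Aug arrays.

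Myt01-011E01 was 2.10-fold lower in spring (log2 -1.07 ± 0.25, adjusted p = 0.0210). Its ratio was negative on every Nov/Oct array, at -0.82, -0.69 and -1.07, and on every Dec/Nov array, at -0.56, -0.71 and -0.68. Its highest month was October, 0.97 above its mean over the year on the log2 scale.

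The other 2 lower clones are named because the group has 4 members, and were chosen after their values were seen. Myt01-013F06 (log2 -1.59 ± 0.39, adjusted p = 0.0281) was lower in November than in October on each array, with ratios of -1.74, -1.61 and -2.28. Myt01-009G09 (log2 -0.90 ± 0.22, adjusted p = 0.0313) had Oct/Sep ratios of -0.45, -0.21 and -0.82, and its highest month was July. With the alike arrays averaged, Myt01-016G08 stayed called (adjusted p = 0.0465), and Myt01-011E01, Myt01-009G09 and Myt01-013F06 did not (0.0647, 0.0647 and 0.0740). With 1 array left out at a time, Myt01-016G08 was called in all 40 fits, Myt01-011E01 in 34, Myt01-013F06 in 26 and Myt01-009G09 in 19, and the lower group shrank to 1 clone without Nov/Oct replicate 3 or Jul/Jun replicate 2.

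The intensities of the single channels were less separate than the ratios. They were taken after the mean intensity of both dyes had been brought to the same distribution on every array. Unlike the ratios, they are not set against the other channel of the same spot. Of Myt01-013F06, the 16 spring channels read between 7.05 and 8.40 on the log2 scale with a median of 7.52, and the 12 autumn channels between 9.13 and 11.3 with a median of 9.91. These ranges do not overlap. For Myt01-016G08 the spring channels ran from 6.59 to 9.44 with a median of 8.03 and the autumn channels from 7.98 to 11.2 with a median of 10.4. For Myt01-011E01 the spring channels ran from 7.29 to 9.13 (median 8.22) and the autumn channels from 8.69 to 10.6 (median 9.98). In both clones a part of the ranges was shared.

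Of Myt01-005E10, the spring channels ran from 10.2 to 11.7 (median 10.8) and the autumn channels from 9.20 to 10.7 (median 10.00). For Myt01-009E04 the channels overlapped almost wholly, from 10.3 to 12.2 in spring and from 10.3 to 12.0 in autumn, with medians of 10.96 and 10.86. Its call rests on the ratios within arrays. Spring and autumn channels did not overlap in 2 of the 17 higher and 1 of the 4 lower clones, and in 32 of all clones (1.67%). In 14 of the 17 higher clones the median channel was brighter in spring, and in 3 it was dimmer. One of the 3 was Myt01-006F07, with medians of 8.84 in spring and 9.22 in autumn beside a log2 difference of 1.65 ± 0.37.

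**Figure D2:**
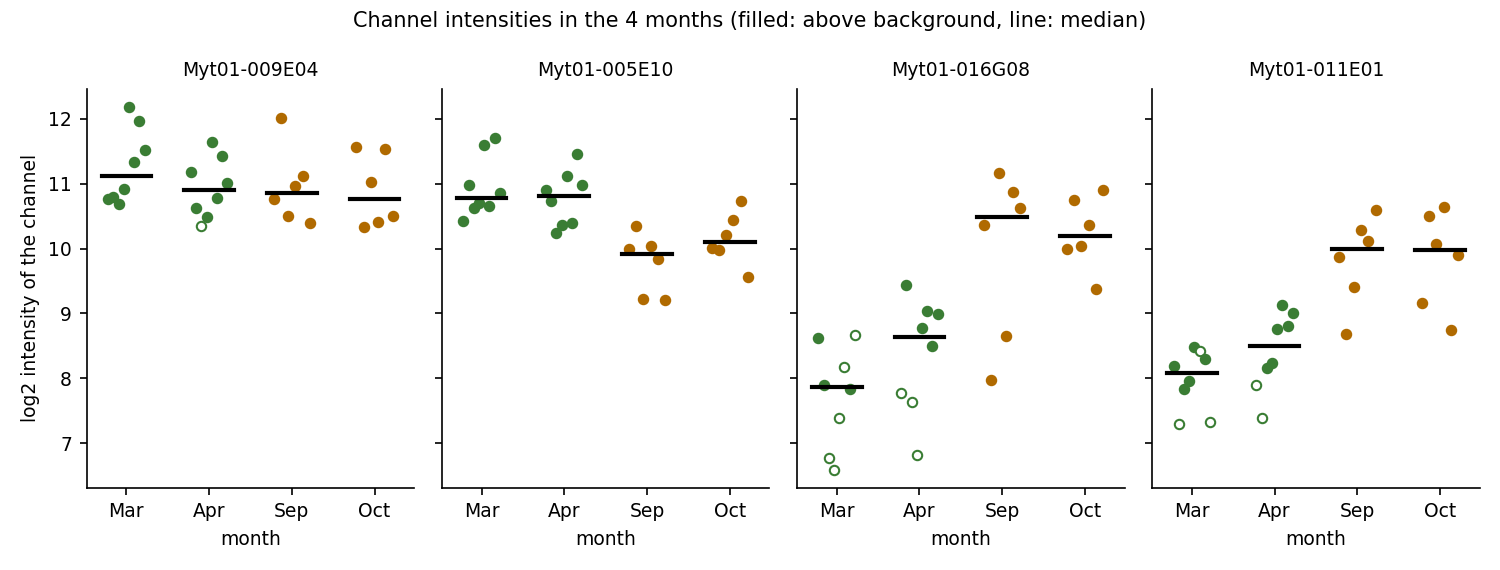
Log2 intensity of the single channels (vertical axis) in March, April, September and October (horizontal axis) for the 2 clones with the highest B in each direction. Points are channels (8 in each spring month, 6 in each autumn month), filled where the 2 spots lay above background, and lines are medians. Myt01-016G08 and Myt01-011E01 are brighter in autumn, Myt01-005E10 is brighter in spring, and Myt01-009E04 overlaps between the seasons.

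The 4 pairs of months were also compared singly. March and September differed in 18 clones (0.938%), March and October in 20 (1.04%), April and September in 16 (0.833%) and April and October in 18 (0.938%, with 0.781% higher in April). Of the 17 higher clones, 11, 15, 11 and 11 were called in these pairs in the same order, and their medians were 1.62, 1.58, 1.60 and 1.51 on the log2 scale. The pairs share months and are not independent. Each of the 17 was fitted higher in each spring month than in each autumn month, and the 4 lower clones lower, but the clones were chosen on the mean of these 4 pairs, so the shared sign is no separate support.

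Within the seasons, April and March differed in 1 clone (0.0521%), which was none of the 21. This count rests on the first Apr/Mar array, which ran against the other 3 (r of -0.81 to -0.62, and 0.64 to 0.75 among the others). Without it 62 clones were called (3.23%), and with its sign turned 82 (4.27%), again none of the 21. These settings were chosen after the data were seen. October and September differed in 37 clones (1.93%), 18 of them higher and 19 lower in October, among which were 1 of the 17 higher and 1 of the 4 lower clones.

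In all 4 pairs, 5 clones (0.26%) were called, each with more transcript in spring. They were Myt01-009E04, Myt01-005E10, Myt01-009D08, Myt01-005D07 and Myt01-001A01. Myt01-009D08 shared with these first 2 an upward Mar/Feb step, at 0.50, 0.69, 0.68 and 0.81. It also shared a downward May/Apr step, at -1.28, -1.48, -1.18 and -1.36. Its Dec/Nov ratio was above 0 on all 3 arrays, with a mean of 0.80, against means of -0.12 in Myt01-009E04 and -0.07 in Myt01-005E10. The log2 difference of Myt01-009D08 was 1.57 ± 0.29 (adjusted p = 0.00261).

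Myt01-005D07 gave 2.06 ± 0.38 (adjusted p = 0.00261). Its Mar/Feb ratios were 0.91, 1.06, 0.92 and 0.69, and its Nov/Oct ratios of 0.83, 1.81 and 1.45 put November above October on each array. Myt01-001A01 gave 1.52 ± 0.28 (adjusted p = 0.00261), and its largest step was Nov/Oct, at 1.58, 1.64 and 2.40. Its Mar/Feb ratio was below 0 on each array, at -0.23, -0.07, -0.58 and -0.01. With the alike arrays averaged 3 clones were called in all 4 pairs.

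The seasons were then set against the 8 months of neither season. Spring differed from these months in 24 clones (1.25%), 22 higher and 2 lower. Autumn differed in 62 clones (3.23%), 21 higher and 41 lower (2.14%). Of the 17 clones higher in spring than in autumn, 6 were called as raised in spring alone, 8 as lowered in autumn alone, 1 (Myt01-005E10) on both sides and 2 on neither. Spring minus the 8 months had a median of 0.75 over the 17 and autumn minus the 8 months a median of -1.02. Of the 4 lower clones, 3 were raised in autumn and Myt01-009G09 was lowered in spring. A call on 1 side and not on the other does not show that the sides differed in size, which was not tested. The split also rests on the B part of the rule. At an adjusted p under 0.05 alone, 4 of the 17 differed in spring only, 9 in autumn only, 4 on both sides and 0 on neither. Myt01-009E04 and Myt01-009D08, counted here as raised in spring alone, had autumn adjusted p of 0.0286 and 0.0339.

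The 6 clones raised in spring included Myt01-009E04 (1.02 ± 0.14, adjusted p = 5.75e-05) and Myt01-009D08 (0.97 ± 0.17, adjusted p = 5.78e-04). As a group they stood in March and April at medians of 0.86 and 0.87 above their own mean over the year, and in September and October at -0.55 and -0.62. Their Nov/Oct step had a median of 0.01 but ran from -0.52 to 1.23, upwards in 3 of the 6. The 8 clones lowered in autumn had medians of 0.57 and 0.39 in March and April and of -1.29 and -1.10 in September and October. Their Nov/Oct step had a median of 1.59, ran from -1.59 to 3.83 and was upwards in 7 of the 8. They stood at medians of 0.55 in November and 0.72 in December, but only 4 of the 8 lay above their own April level in November and 5 in December. Myt01-006C06 was at -2.72 and -2.69 in these months, against 0.67 in April. The 8 were also dimmer, with a median intensity of 8.33 against 10.1 in the 6. Both sets were chosen on calls that use their levels in these months, which favours the spring and autumn medians given here. In the 8, the choice also favours a step upwards out of October. Over all clones the Nov/Oct step had a median of 0.007.

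Myt01-006F07 (autumn minus the 8 months -1.61 ± 0.23, adjusted p = 7.74e-05) was among the 8 called in autumn, and in spring it lay 0.04 ± 0.21 from the same months. Myt01-019A06 had the strongest autumn decrease by B, -1.52 ± 0.22 (adjusted p = 7.74e-05). Its Nov/Oct ratios of 2.54, 2.81 and 3.66 were large on every array, but its fitted level was 2.47 above its yearly mean in December and near it in March (0.20) and April (-0.19). Spring against autumn was not called (1.22 ± 0.34, adjusted p = 0.0807).

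Among the clones raised in autumn, Myt01-016G08 (2.37 ± 0.38, adjusted p = 1.11e-04) and Myt01-011F03 (0.83 ± 0.13, adjusted p = 1.11e-04) came first. Myt01-011F03 had Sep/Aug ratios of 1.07, 0.81 and 0.72 and Nov/Oct ratios of -0.51, -0.87 and -1.16, and its spring minus autumn difference was -0.63 ± 0.21 (adjusted p = 0.150). The clones lowered in spring were Myt01-016D05 (-0.91 ± 0.18, adjusted p = 0.00417) and Myt01-009G09 (-0.54 ± 0.13, adjusted p = 0.0272). Myt01-016D05 had positive ratios on all 4 May/Apr arrays, at 1.35, 1.5, 1.24 and 1.04, and negative ones on all 3 Oct/Sep arrays, at -0.98, -1.36 and -0.91. October was thus nearer to spring than September was, and the difference between the seasons, -0.95 ± 0.31, was not called (adjusted p = 0.150).

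Over the year, the 17 higher clones were lowest in autumn and highest in spring, with a steep change after October. Their median level, relative to each clone's own mean of the 12 months, was near 0 from May to July (-0.06, -0.01 and 0.05) and lay at -0.56 in August, -0.88 in September and -1.01 in October. It was 0.17 in November, 0.08 in December and 0.16 in January, and then 0.50 in February, 0.76 in March and 0.65 in April. The highest month was March in 8 of the 17 and April in 2, and the lowest was October in 7 and September in 6. Over all clones, March was the highest month in 5.73%, October the lowest in 9.58% and September the lowest in 9.58%. These medians describe clones that were chosen for the contrast.

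The members were not alike outside the 4 months. Of the 17, 3 were highest in December. Myt01-006C06, singled out after its values were seen, stood at -2.79 in January and 3.24 in June, and its spring and autumn channels did not overlap (8.76 to 10.3 and 7.19 to 8.37). The 4 lower clones had a median of 0.79 in September and 1.04 in October, and of -0.48 and -0.45 in March and April.

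**Figure D3:**
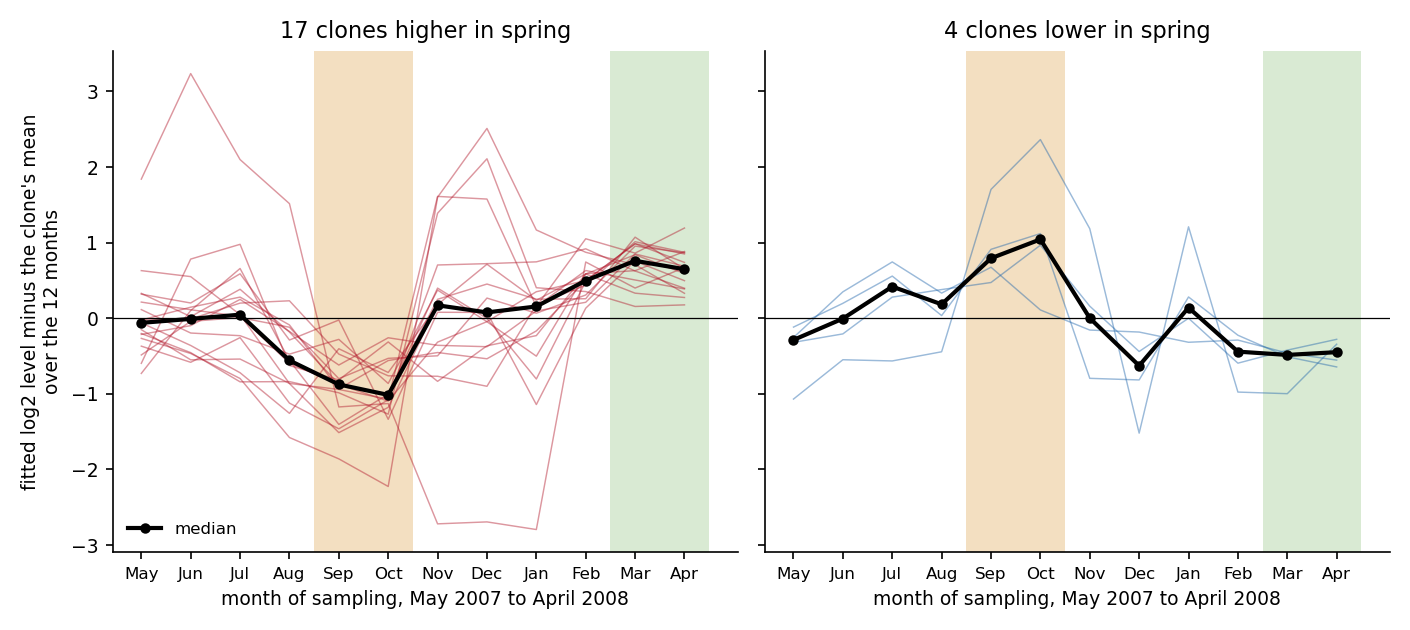
Fitted log2 level in each month relative to the clone's own mean over the year (vertical axis), from May 2007 to April 2008 (horizontal axis), for the 17 clones called higher (left) and the 4 called lower in spring (right). Thin lines are clones, the black line is their median, and the shaded bands are autumn and spring. The median of the 17 is lowest in October at -1.01 and highest in March at 0.76, and 13 of the 17 lie higher in November than in October.

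The contrast can be split into the steps that lead from autumn through winter to spring, which sum to it. The largest part in the 17 clones was the step from October to November, with a median of 1.23. This step ran upwards in 13 of the 17 and was the largest part in 10. Over all clones it was the largest upward part in 28.75%. The step from January to February had a median of 0.35 and ran upwards in 15 clones, and that from February to March had a median of 0.25 and ran upwards in 10. The December and January steps had medians of 0.02 and -0.20. In the 4 lower clones the October to November step had a median of -0.99 and ran downwards in all 4, the December to January step a median of 0.77 and the January to February step a median of -0.55.

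On the other side of the loop, which runs from April 2008 by the closing step to May 2007 and on to autumn 2007, the 17 clones differed by a median of -0.76 between April and May, downwards in 15, by -0.57 from July to August, downwards in 15, and by -0.34 from August to September, downwards in 14. The step between April 2008 and May 2007 was the largest downward part in 8 clones and the July to August step in 6. In the lower clones the August to September step had a median of 0.61 and ran upwards in all 4. For the steps on this side the share over all clones was not computed. These counts can therefore not be set against the 10 clones of the step from October to November.

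**Figure D4:**
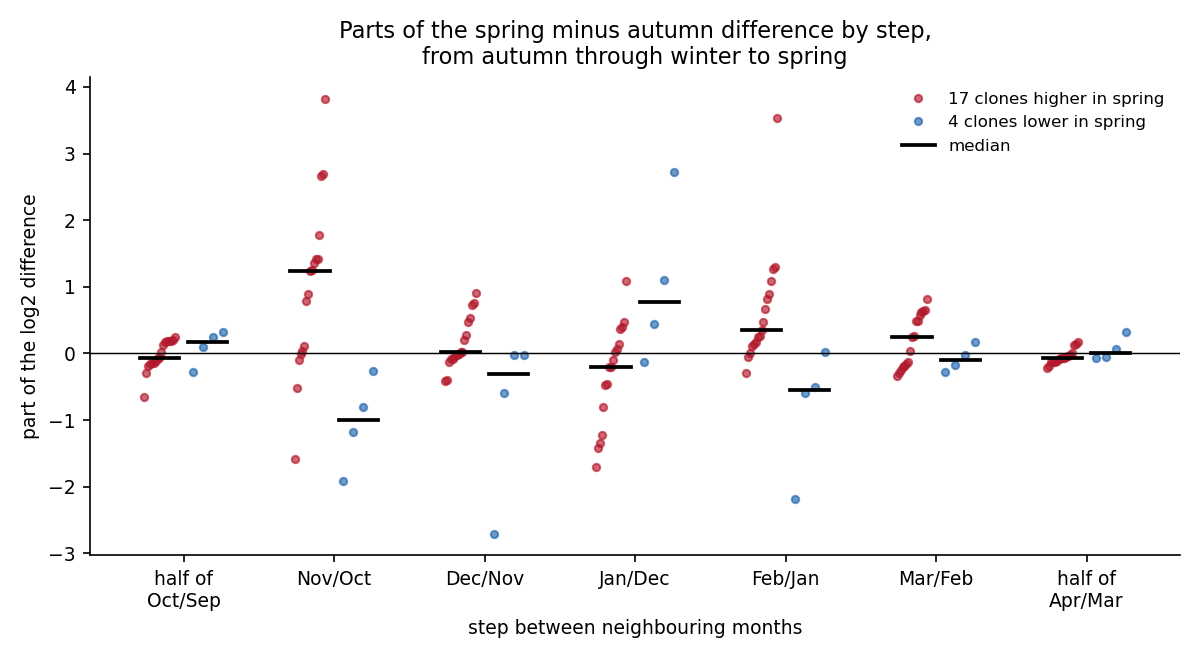
Parts of the log2 difference between spring and autumn (vertical axis) that come from each step between neighbouring months (horizontal axis), for the 17 clones called higher (red) and the 4 called lower in spring (blue). Points are clones, bars are medians, and the outer steps enter in part because each season is the mean of 2 months. The Nov/Oct step has the median farthest from 0 in both groups, 1.23 and -0.99, in clones chosen for the contrast with these same arrays.

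The loop offers 2 sets of arrays for the same difference, one through the winter months (without the May/Apr arrays, 36 arrays) and one through the summer months (without the Dec/Nov arrays, 37 arrays), which reaches spring only by the May/Apr arrays across the 2 ends of the year. The arrays inside the seasons, Apr/Mar and Oct/Sep, serve both. All 21 clones kept their sign on either side. The winter side called 20 clones (1.04%), 17 higher and 3 lower, of which 9 were among the 21. The summer side called 0 clones (0%), although 168 had an unadjusted p under 0.05, among them 13 of the 17 and 2 of the 4, and the smallest adjusted p was 0.0869. The median SE was 0.35 on each side.

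The 17 clones had a median difference of 1.85 on the winter side and 1.25 on the summer side, and the winter value was the larger in 16. In the test of the difference between the sides, no clone was called (0%) by limma, 144 had an unadjusted p under 0.05, and the smallest adjusted p was 0.104. The same test called 71 of the 1920 clones on the arrays with the later month in Cy3 alone, which hold both alike pairs. It called 10 without Nov/Oct replicate 1 and 9 with array weights. The 0 calls with all arrays do not show that the sides were alike. Myt01-009E04 read 1.63 ± 0.38 through winter and 1.49 ± 0.38 through summer, and Myt01-005E10 read 1.72 ± 0.42 and 1.60 ± 0.42. In these the sides lay within 1 SE of each other. Myt01-003D11 read 4.62 ± 0.70 and 0.40 ± 0.75, and Myt01-016G08 read -4.22 ± 0.83 and -1.12 ± 0.84, so that the winter estimate was the larger. Myt01-003D11 is 1 of the clones mostly below background. The difference between the sides was not called for either (adjusted p = 0.143 and 0.478).

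**Figure D5:**
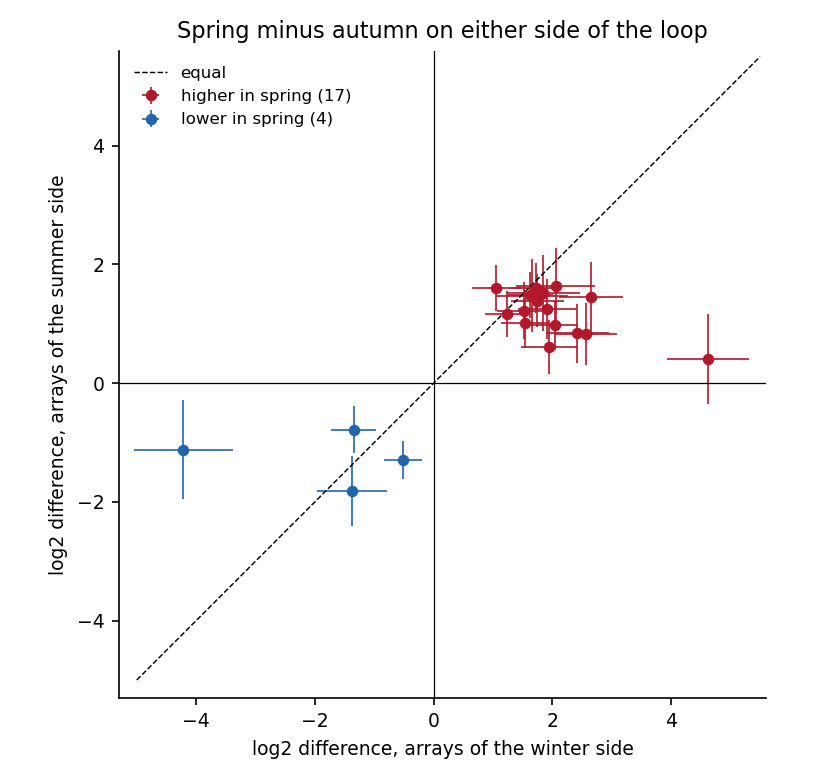
Log2 difference between spring and autumn from the arrays of the summer side (vertical axis) against that from the arrays of the winter side (horizontal axis) for the 21 called clones, each as estimate ± SE. Red clones were called higher and blue ones lower in spring with all arrays, and the dashed line marks equal values. All 21 have the same sign on both axes, which their choice on all arrays favours, and 16 of the 17 red points lie below the line.

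The number of calls differed between the arrays of either dye orientation. The number of arrays differed as well. Both alike pairs lie in the set with the later month in Cy3, where they are the only Dec/Nov and Mar/Feb arrays. The parts of dye, of array number and of alike arrays in these counts cannot be told apart. The later month was in Cy5 on 15 of the 40 arrays (8 of the 21) and in Cy3 on 25 (13 of the 21). From the arrays with the later month in Cy3 alone 35 clones were called (1.82%), 10 of them among the 21, and from those with it in Cy5 alone 0 were called (0%), with 202 at an unadjusted p under 0.05. All 21 kept their sign in both sets, while the Mar/Feb arrays of opposite orientation, as given above, did not correlate positively. The 21 were chosen on the fit of both sets together, so the shared sign is no separate support. Over the 17 clones the median difference was 1.72 in the Cy3 set and 1.44 in the Cy5 set. With a dye term for each clone, 23 clones were called (1.2%), and all 21 were among them.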

How the data were processed

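Digestive gland RNA of single female mussels was hybridized in pairs of neighbouring months to 40 two-colour cDNA arrays. The deposited scanner values are intensity values per spot (mean foreground and median local background of each dye), read by the authors with GenePix and not normalized. The authors also deposited log2 ratios, made with limma (version not given in the sources used here) after background correction and loess. In 38 of the 40 columns these could be recomputed from the scanner values. The other 2 columns, Dec/Nov replicate 3 and Mar/Feb replicate 4, are each 1 of an alike pair. They were left out of the alternative that uses the deposited ratios. That table was not the main source.

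Background was corrected by normexp with an offset of 50. Ratios, on the log2 scale and as later over earlier month, were adjusted by a loess curve through the clone spots, and each clone is the mean of its 2 spots. For the channel intensities and the separate channels, the mean log2 intensity of both dyes was also quantile normalized between arrays. Spot background was called exceeded at 2 SD above its local mean. The number of arrays limits the precision. With limma 3.58.1 in R 4.3.3, 1 coefficient per month against January was fitted over all arrays (29 residual degrees of freedom, 3.68 prior degrees of freedom), and contrasts of months were taken with Benjamini-Hochberg adjustment over the 1920 clones. A clone was called at an adjusted p under 0.05 with B above 0. All p-values in the text come from these limma fits, and values after ± are standard errors. The script was tested on simulated data.

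The comparison, the clone rule and the alternatives were chosen with earlier results of these data known. The files did not pair clones with gene names, so gene lists, cell markers and sequences were not analysed here. Named clones are the 2 called clones of highest B in each direction of a comparison, and others where the text says so. The 5 clones called in all 4 pairs are named as a group of 5. Alternatives were no background correction or a plain subtraction, loess by print-tip or over all spots, median centring, scaling between arrays, a filter on dim clones, a dye term, a replicate block, array weights, the deposited ratios, adjusted p alone, B alone, either side of the loop, the first Apr/Mar array with its sign turned, wider seasons, separate channels and each array left out. Fits on 1 dye orientation, without 2 alike Dec/Nov arrays and with alike arrays averaged were added after seeing the data.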

Additional observations from a re-analysis of the deposited data

Results flagged for a closer look

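Among 60 sets of 4 replicate arrays searched (the log2 ratios of the named clones, the share of spots above background and the agreement within a step), 5 held an array whose gap to the nearest other exceeded Dixon's critical share of their range. Chance alone gives about 1 such set in 20. The first Apr/Mar array appears in 3 of them. Its correlation with the rest of its step was -0.80, against 0.44 to 0.60 for the other 3 arrays. Myt01-005D07 read 0.50 on it against -0.74 to -0.56 on the others, and Myt01-019A06 read 0.017 against -0.38 to -0.35. With the sign of this array turned 27 clones were called and the 21 were among them.

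Myt01-013F06 read -0.11 on the third Feb/Jan array, where the other 3 lay between -0.63 and -0.55. Myt01-011F03 read 0.056 on the first May/Apr array, where the others lay between -0.21 and -0.19.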

How the results depend on the processing

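All 21 called clones kept their direction in every alternative, or 17 of the 17 tested with the filter on dim clones, which left 628 clones. These fits reuse the arrays on which the clones were chosen, so the kept direction is no separate support. The count of 21 stayed within 1.5 times under plain subtraction (16), no background correction (18), print-tip loess (23), loess over all spots (23), scaling (18), the dim filter (16), a dye term (23), a replicate block (22), adjusted p alone (23), B alone (21), the winter side (20), the turned Apr/Mar array (27) and without 2 alike Dec/Nov arrays (15). It did not in the settings that follow, and the cause was not tested. All counts are out of 1920 clones, except out of 628 with the dim filter, where the 16 are a larger share. With median centring 0 were called for the seasons (0 higher, 0 lower), 0 in all 4 pairs and 9 for spring against the other months, with 155 at an unadjusted p under 0.05 and a smallest adjusted p of 0.0508. Array weights gave 44 (33 higher, 11 lower), 10 in all 4 pairs, 56 for spring, 94 for autumn and 9 for the difference between the sides. The deposited ratios, used without 1 array of each alike pair, gave 12, of which 0 were lower, and 2 in all 4 pairs. The summer side gave 0 (0 higher, 0 lower), 0 in all 4 pairs and 14 for autumn. February to April against September to November gave 11 (9 higher, 2 lower). Separate channels gave 195 (96 higher, 99 lower), of which 13 were among the 21, with 53 in all 4 pairs, 196 for spring and 137 for autumn. Arrays with the later month in Cy5 gave 0 (0 higher, 0 lower), 0 in all 4 pairs, 0 for spring and 4 for autumn. Those with it in Cy3, which hold both alike pairs, gave 35 (10 lower), 11 in all 4 pairs and 71 for the difference between the sides. With the alike arrays averaged 13 were called, 1 of them lower, and 3 in all 4 pairs. Without 2 alike Dec/Nov arrays 0 were lower, 3 were called in all 4 pairs and 38 for autumn.

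Spring against the other months gave 38 with scaling, 14 with the dim filter, 37 with adjusted p alone and 0 on the winter side. Autumn against the other months gave 38 with plain subtraction, 36 with scaling, 33 with the dim filter and 137 with adjusted p alone. All 4 pairs gave 2 with no background correction, 3 with the dim filter and 10 on the winter side, and the difference between the sides gave 4 with B alone. April against March gave 1 clone as labelled, 62 without Apr/Mar replicate 1 and 82 with its sign turned.

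With each of the 40 arrays left out in turn, the seasons differed in 16 to 29 clones (14 to 25 higher, 1 to 5 lower), and 3 to 9 were called in all 4 pairs. Spring gave 17 to 32, autumn 52 to 77 and the difference between the sides 0 to 10, with 10 without Nov/Oct replicate 1. The lowest count for the seasons came without Nov/Oct replicate 3 and the highest without replicate 1. Of the 21 clones, 14 were called in all 40 fits, 13 higher and 1 lower. Myt01-011E01 was lost without Jan/Dec replicate 3, Nov/Oct replicate 3, Sep/Aug replicate 1 or 3, Jul/Jun replicate 2 or Jun/May replicate 1. Same-numbered arrays of different steps had a median r of residuals of 0.07 over 204 pairs, against 0.04 over 528 pairs of other numbers. An r above 0.1 was found in 71 and 155 of these pairs. Of the 40 arrays, 19 correlated best with their own number. The count that chance would give was not computed, so a pairing by number is neither shown nor excluded. With the replicate block (correlation 0.013), 22 clones were called, the 21 among them. For the single named clones, 210 values outside these left-out fits stayed on their side of the threshold, 67 lost the call in the same direction and 6 gained one, and in the left-out fits the counts were 478, 41 and 1. None turned its direction.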
